A study of Mus musculus with 34 samples.

Results

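The genes of the CDC25, WEE1 and CDK1 mitotic entry switch were followed through early mouse development in embryos that carried injected CHK1 mRNA. The set is 10 genes: the phosphatase genes Cdc25a, Cdc25b and Cdc25c, the kinase genes Wee1, Wee2 and Pkmyt1, and the genes Cdk1, Ccnb1, Ccnb2 and Plk1. They were taken by symbol as targets and executors downstream of CHK1, and all 10 were found among the 49686 genes of the zygote and late 2-cell tables and the 51734 genes of the blastocyst table. Early zygotes had been microinjected with mRNA for wild-type (WT) CHK1 or for CHK1 carrying the R442Q mutation, and each library was made from 1 whole embryo with SMART-seq2. There were 5 WT and 6 R442Q zygotes and 4 WT and 5 R442Q late 2-cell embryos, both labelled as having had no treatment, and 7 WT and 7 R442Q blastocysts. All 14 blastocysts were labelled as treated with a CHK1 inhibitor, in medium with 30 nM of it, so no blastocyst group without inhibitor was analysed here. Every embryo received injected CHK1 mRNA, so none is an uninjected control, and the strain is not given in the sources used here. Each embryo is a separate sample, but no label says which share parents, an injection session or a library batch. P-values therefore measure the spread between these embryos only.

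Entry into mitosis is set by CDK1 bound to a B-type cyclin. WEE1, WEE2 and PKMYT1 hold CDK1 inactive by phosphorylating it, and the CDC25 phosphatases remove those phosphates, while PLK1 helps to switch CDC25 on and WEE1 off. CHK1 acts on CDC25 and WEE1 to hold cells out of mitosis when DNA is damaged or unreplicated. WEE2 is known as an oocyte kinase of the WEE1 family, and transcripts stored in the egg serve the zygote before its own genome becomes active. What was measured here is RNA, not protein or phosphorylation.

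The total count per embryo was 7183632 to 11296522 for the zygotes. It was 5727956 to 8916343 at the late 2-cell stage, and the depth of the blastocysts is unknown because only FPKM were used for them. FPKM divides reads by transcript length and library size. The deposited FPKM summed to 712234 to 742246 in WT and 814376 to 976830 in R442Q late 2-cell embryos, which did not overlap. Zygote sums did overlap, at 669904 to 687863 in WT and 677067 to 686416 in R442Q. An alternative test of these stages on deposited FPKM did not rescale them. To set levels side by side across stages, the FPKM of each embryo were rescaled to one common sum over the 43349 symbols that all 3 tables share. Because each stage came in a table of its own, effects of stage and of table cannot be told apart. As a check of the labels, the injected gene Chek1 stood at 9218 ± 3275 (SD, n = 5) rescaled FPKM in WT zygotes and 9639 ± 909 (n = 6) in R442Q zygotes, at 612 ± 207 (n = 4) and 631 ± 388 (n = 5) in late 2-cell embryos, and at 21.01 ± 10.1 and 17.9 ± 3.40 (n = 7 each) in blastocysts. It counts injected and embryonic transcripts together and does not separate WT from R442Q, and its genotype difference did not pass at any stage (adjusted p of 0.416 and 0.995 in edgeR and 0.991 in limma). Markers of oocytes and zygotes, such as Gdf9 and Zp3, summed to 7974 to 11662 rescaled FPKM in WT zygotes and 5350 to 8716 in R442Q zygotes, with all 8 present. They summed to 1746 to 4628 in WT and 1937 to 8959 in R442Q late 2-cell embryos, and to at most 5.89 in blastocysts. Markers of the 2-cell embryo, such as Zscan4c, summed to 209 to 2201 in WT and 872 to 3837 in R442Q late 2-cell embryos. Cumulus and granulosa cell markers summed to 25.4 to 31.3 in WT and 17.5 to 24.4 in R442Q zygotes, which did not overlap. Of these 8 markers, 1 in WT and 2 in R442Q zygotes had a mean of at least 1, and Amh was at 0 in every zygote. Trophectoderm markers summed to 2921 to 24827 in WT and 1161 to 12009 in R442Q blastocysts, with all 6 present. In whole embryos, fewer cells of a type and less RNA per cell cannot be told apart.

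The stretches before the start sites of 5 members are shown because these genes moved in different directions after the zygote: Cdk1 rose while Cdc25a, Ccnb1, Ccnb2 and Plk1 fell. RefSeq promoters (GRCm38.p6) matched 7 of the 10 members by symbol. Each sequence is the 250 bases before the start that RefSeq gives, on the gene's strand, 5′ to 3′. They lie at chr9:109875329-109875578 on the plus strand for Cdc25a, chr10:69352913-69353162 on the minus strand for Cdk1, chr13:100786487-100786736 on the minus strand for Ccnb1, chr9:70421555-70421804 on the minus strand for Ccnb2 and chr7:122159185-122159434 on the plus strand for Plk1. Capitals mark 3 motifs searched on both strands: the cell cycle homology region (CHR, TTTGAA), the CCAAT box (CCAAT, or ATTGG read from the other strand) and an E2F site (TTTGGCGC or TTTCGCGC).
Cdc25a: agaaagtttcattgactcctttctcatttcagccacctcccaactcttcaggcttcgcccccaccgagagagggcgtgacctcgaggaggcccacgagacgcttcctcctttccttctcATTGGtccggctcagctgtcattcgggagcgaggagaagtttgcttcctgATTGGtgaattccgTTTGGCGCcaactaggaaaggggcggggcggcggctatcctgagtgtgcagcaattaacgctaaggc
Cdk1: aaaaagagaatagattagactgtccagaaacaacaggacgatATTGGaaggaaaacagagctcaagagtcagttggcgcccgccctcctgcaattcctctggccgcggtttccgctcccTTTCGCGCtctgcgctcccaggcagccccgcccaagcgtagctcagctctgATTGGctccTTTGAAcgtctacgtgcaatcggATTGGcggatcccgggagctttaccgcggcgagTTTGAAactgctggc
Ccnb1: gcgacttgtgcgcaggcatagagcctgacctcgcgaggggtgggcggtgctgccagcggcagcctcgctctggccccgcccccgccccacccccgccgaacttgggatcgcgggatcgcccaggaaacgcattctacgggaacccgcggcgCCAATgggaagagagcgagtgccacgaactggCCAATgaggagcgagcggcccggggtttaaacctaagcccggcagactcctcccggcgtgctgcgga
Ccnb2: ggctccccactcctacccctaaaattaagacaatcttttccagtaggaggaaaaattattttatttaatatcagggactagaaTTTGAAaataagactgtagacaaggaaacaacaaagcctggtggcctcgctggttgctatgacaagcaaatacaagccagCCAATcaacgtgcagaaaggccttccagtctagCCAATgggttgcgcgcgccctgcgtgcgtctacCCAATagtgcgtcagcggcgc
Plk1: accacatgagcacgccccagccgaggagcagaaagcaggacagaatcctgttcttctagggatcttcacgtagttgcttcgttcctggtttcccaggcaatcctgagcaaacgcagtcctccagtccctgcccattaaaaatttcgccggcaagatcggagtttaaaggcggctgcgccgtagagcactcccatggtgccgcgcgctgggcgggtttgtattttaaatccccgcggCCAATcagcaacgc
The CHR letters occurred in 16% of 32851 promoters of this length, the CCAAT letters in 33.8% and the E2F letters in 0.654%. The Cdk1 promoter held all 3 motifs, with CHR matches 71 and 15 bases before the start, CCAAT matches at 208, 80 and 48, and an E2F match at 131. Cdc25a had 2 CCAAT matches, at 131 and 81, and an E2F match at 67. Ccnb2 had 3 CCAAT matches, at 87, 54 and 21, with a CHR match at 167, Ccnb1 had 2 CCAAT matches, at 99 and 67, and Plk1 had 1, at 14. The gene spans printed here are those of GENCODE, whose starts can differ from RefSeq's: 26 bases of the Cdk1 window and 84 of the Ccnb1 window, with the Cdk1 CHR match at 15 and the Ccnb1 CCAAT match at 67, lie inside those spans. The windows of Cdc25a, Ccnb2 and Plk1 have 0 such bases. Whether a motif goes with a direction of change was not tested, and a match describes letters, not binding.

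In WT zygotes the cyclin gene Ccnb1 and the oocyte kinase gene Wee2 were the most abundant members. Levels per length were 1445 ± 139 rescaled FPKM (SD, n = 5) for Ccnb1, 709 ± 109 for Wee2, 350.0 ± 31.7 for Ccnb2, 310.2 ± 13.1 for Plk1 and 221 ± 40.2 for Cdk1. Cdc25b followed at 66.0 ± 19.3, Pkmyt1 at 40.9 ± 15.5, Cdc25a at 30.6 ± 4.93, Cdc25c at 3.99 ± 1.04 and Wee1 at 2.69 ± 0.778. Of these neighbours, the ranges over embryos overlapped for Ccnb2 and Plk1, Cdc25b and Pkmyt1, Pkmyt1 and Cdc25a, and Cdc25c and Wee1, and did not overlap for the other 5 neighbouring pairs. The plot of all members by group shows another order at the late 2-cell stage, when Cdk1 (825 ± 195 rescaled FPKM in WT, n = 4) and Ccnb1 (787 ± 93.4) stood level and Cdc25c (119 ± 24.4) was above Cdc25a and Cdc25b.

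**Figure D1:**
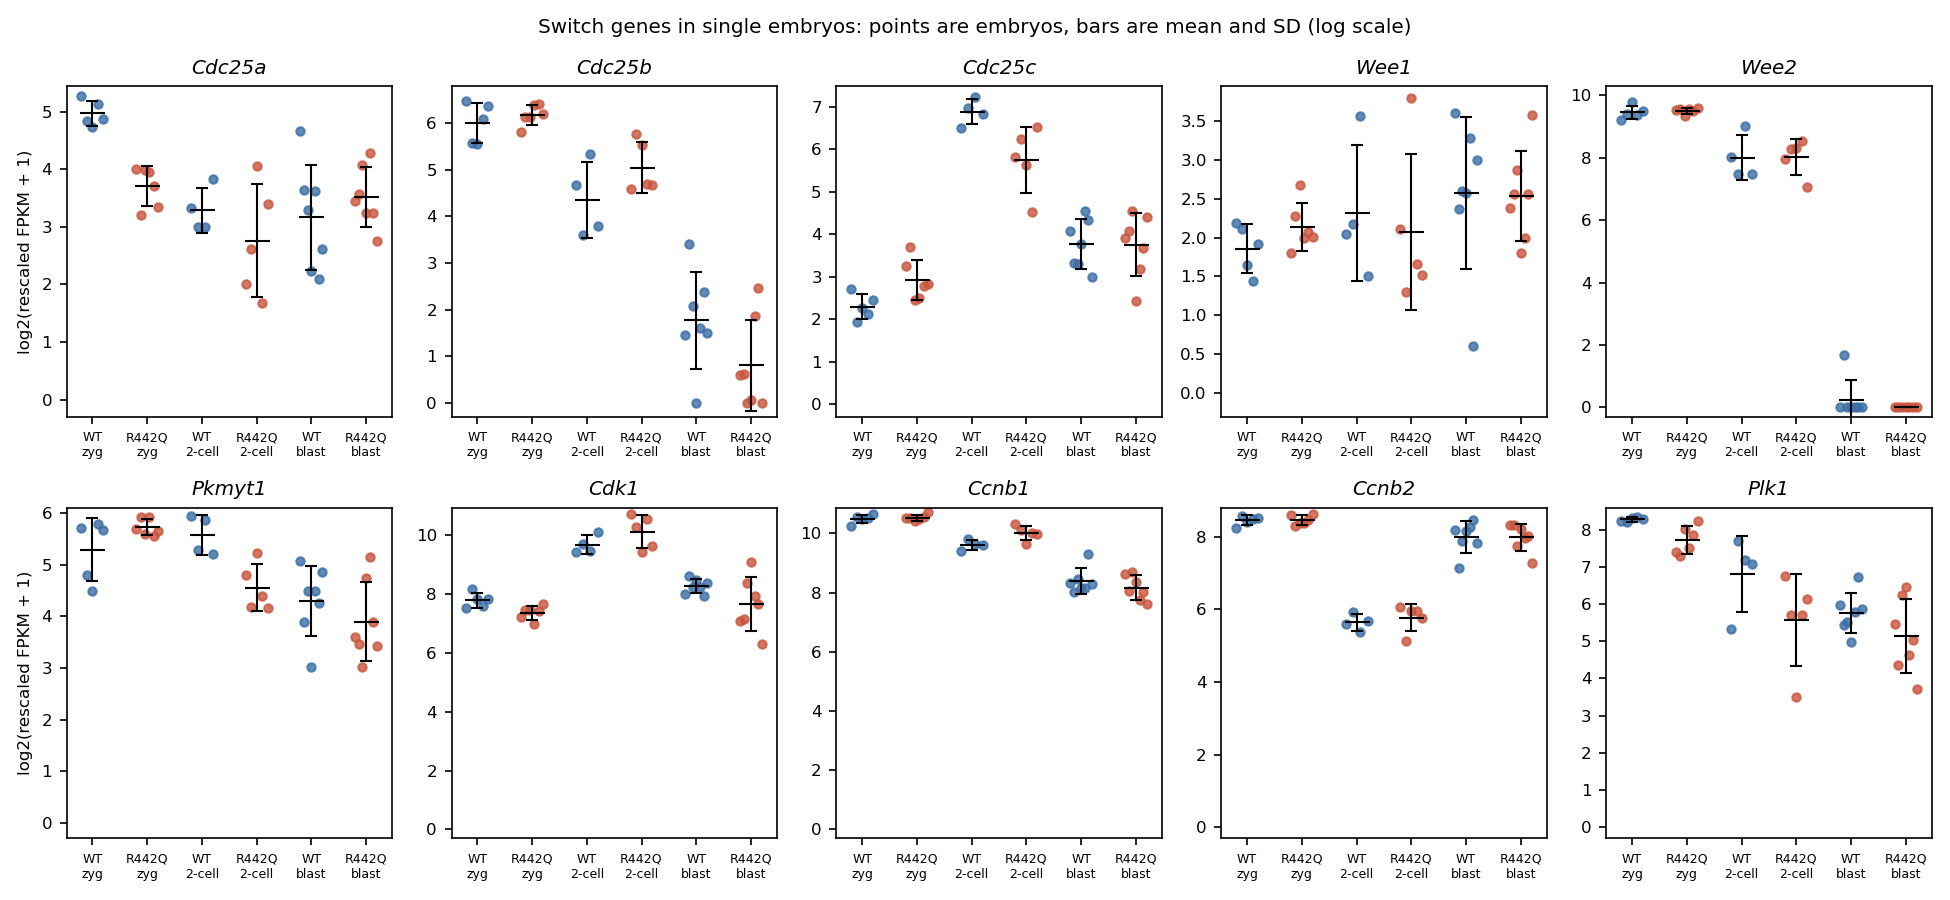
Levels of the 10 members in single embryos, as log2(rescaled FPKM + 1), by group; points are embryos, and bars give the mean and SD of the log2 values. Cdc25a of the 6 R442Q zygotes lies below all 5 WT zygotes, Cdc25c and Cdk1 have their highest group means in late 2-cell embryos, and Wee2 is at 0 in 13 of 14 blastocysts.

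Cdc25a was the 1 member of 10 that differed between the genotypes in zygotes by edgeR's quasi-likelihood test, against 13.2% of 12420 genes tested and 6.92% lower in R442Q. Including it, 4 members had an unadjusted p under 0.05, as did 27.1% of genes. Cdc25a (ENSMUSG00000032477.14, chr9:109875579-109893895, plus strand, GRCm38) encodes the CDC25 phosphatase that CHK1 is best known to send for degradation. Its CPM (the count scaled to the library total) were 86.4, 62.98, 58.4, 77.8 and 65.3 in WT zygotes and 35.1, 18.9, 34.7, 33.6, 27.7 and 21.1 in R442Q zygotes. All 6 R442Q zygotes lay below all 5 WT zygotes, and 9.39% of genes tested had groups that did not overlap. With TMM scaling between libraries, Cdc25a fell by 1.18 ± 0.19 (SE) on the log2 scale in R442Q zygotes, or 2.26-fold, with an adjusted p of 0.000852 in edgeR. Leaving out each zygote in turn kept the change between -1.26 and -1.08, and the call was lost only in the model joined with late 2-cell embryos (log2 -1.14, adjusted p = 0.0616); the cause was not tested. The sum of oocyte and zygote markers was also lower in R442Q zygotes (7313 ± 1186 against 9647 ± 1431 rescaled FPKM), as was that of cumulus and granulosa cell markers (20.9 ± 2.92 against 28.3 ± 2.46), and their part in the Cdc25a result was not tested.

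The Cdc25a difference was not called after the zygote. In late 2-cell embryos its CPM were 23.1, 14.95, 17.4 and 28.4 in WT and 9.66, 15.01, 30.01, 7.54 and 29.6 in R442Q. The R442Q values spanned both sides of the WT range, with a log2 difference of -0.12 ± 0.49 (edgeR, adjusted p = 0.922). In inhibitor-treated blastocysts Cdc25a stood at a median of 8.83 rescaled FPKM in WT (lowest 3.25, highest 24.3) and 9.85 in R442Q (lowest 5.73, highest 18.4), and limma gave a log2 difference of 0.40 ± 0.40 with an adjusted p of 0.885. The difference between the zygote and late 2-cell effects, an interaction in a model of both stages, was 0.97 ± 0.47 on the log2 scale and did not pass (edgeR, adjusted p = 0.201). From zygote to late 2-cell Cdc25a fell by 1.82 ± 0.36 in WT (edgeR, adjusted p = 0.000162) and by 0.85 ± 0.32 in R442Q (adjusted p = 0.0226). In R442Q that call was lost on leaving out late 2-cell replicate 1, 2 or 4 (adjusted p of 0.0512, 0.0573 and 0.0690).

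Cdc25b, which encodes the CDC25 phosphatase known for its role in oocyte maturation, was the main CDC25 transcript of zygotes (ENSMUSG00000027330.16, chr2:131186949-131198497, plus strand). Its CPM in WT zygotes were 159, 85.9, 80.8, 127 and 153, and in R442Q zygotes 106, 130.4, 135, 156, 146 and 133. These groups overlapped, with a log2 difference of 0.26 ± 0.18 (edgeR, adjusted p = 0.376). Late 2-cell embryos held 19.6, 20.03, 29.5 and 12.1 CPM in WT and 21.7, 34.6, 29.5, 19.4 and 13.3 in R442Q, all below every zygote. Cdc25b fell by 2.66 ± 0.30 on the log2 scale in WT and by 2.70 ± 0.27 in R442Q (edgeR, adjusted p of 9.03e-08 and 9.94e-09). Per length the fall was smaller, from 66.0 ± 19.3 to 22.1 ± 13.1 rescaled FPKM in WT and from 72.2 ± 10.6 to 34.2 ± 14.2 in R442Q (SD). The length implied by dividing CPM by FPKM was 2674 to 2938 bases in zygotes and shorter in late 2-cell embryos. There it was 1088 to 2517 bases in WT and 628 to 1053 bases in R442Q, which did not overlap. In blastocysts it reached at most 9.60 rescaled FPKM in WT and 4.49 in R442Q, while its FPKM was 0 in 1 WT and 2 R442Q embryos, and it had a limma log2 difference of -0.93 ± 0.51 (adjusted p = 0.741), or -1.91 with a pseudocount of 0.1, and neither passed.

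Cdc25c, which encodes the phosphatase known for the final step into mitosis, had the smallest mean share of CDC25 FPKM in both zygote groups and the largest in both late 2-cell groups (ENSMUSG00000044201.10, chr18:34732993-34751533, minus strand). Zygotes had 6.43, 3.33, 4.41, 3.92 and 5.199 CPM in WT and 10.02, 14.03, 5.28, 5.47, 6.92 and 7.08 in R442Q. Late 2-cell embryos had 117, 161, 188 and 147 CPM in WT and 89.4, 111, 66.3, 37.2 and 142 in R442Q. Every late 2-cell embryo was above every zygote, and the increase was 4.96 ± 0.39 on the log2 scale in WT (31.2-fold) and 3.27 ± 0.33 in R442Q (9.65-fold), with edgeR adjusted p of 2.43e-10 and 8.17e-09. The median change of all genes tested was 0.34 in WT and 0.22 in R442Q.

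The genotype effect on Cdc25c pointed in opposite directions at these stages. It was 0.92 ± 0.32 on the log2 scale in zygotes, where 4 of 6 R442Q zygotes lay above all WT (edgeR, adjusted p = 0.0658), and -0.68 ± 0.37 in late 2-cell embryos, where 4 of 5 R442Q embryos lay below all WT (edgeR, adjusted p = 0.322). Neither passed by itself, though DESeq2 called the zygote difference (adjusted p = 0.0365), as did edgeR without R442Q replicate 3 (adjusted p = 0.0413). The interaction passed at -1.69 ± 0.47 (edgeR, adjusted p = 0.0231), and Cdc25c was 1 of 2 members to do so. Both were lower, against 10.1% of 16199 genes in all and 7.05% lower, and 5 members had an unadjusted p under 0.05, against 24.7% of genes. This call was lost in 7 of 20 fits that left out an embryo, with adjusted p from 0.0510 to 0.0783. They were those without WT zygote replicate 2, R442Q zygote replicates 1, 2 and 5, WT late 2-cell replicates 2 and 3, and R442Q late 2-cell replicate 4. In blastocysts the groups overlapped, at a median of 12.7 rescaled FPKM in WT and 14.1 in R442Q (limma log2 difference 0.04 ± 0.37, adjusted p = 0.991).

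As shares of the summed CDC25 FPKM, WT zygotes held 31.1% ± 4.46 Cdc25a, 64.9% ± 4.54 Cdc25b and 3.99% ± 0.678 Cdc25c (SD, n = 5). R442Q zygotes held 13.6% ± 3.82 Cdc25a, 78.7% ± 4.73 Cdc25b and 7.74% ± 3.57 Cdc25c (n = 6). In late 2-cell embryos Cdc25c held 79.3% ± 6.40 in WT (n = 4) and 57.2% ± 13.1 in R442Q (n = 5), and in blastocysts 53.1% ± 18.0 and 51.7% ± 16.9 (n = 7 each). Cdc25a was the next largest in blastocysts, at 34.6% ± 14.6 and 43.8% ± 15.5. The late 2-cell shares depend on the length used for Cdc25b, which was shorter in every R442Q than in every WT late 2-cell embryo. With each gene's length held at its zygote median, Cdc25c held 86.5% ± 2.54 in WT and 76.7% ± 8.42 in R442Q late 2-cell embryos.

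**Figure D2:**
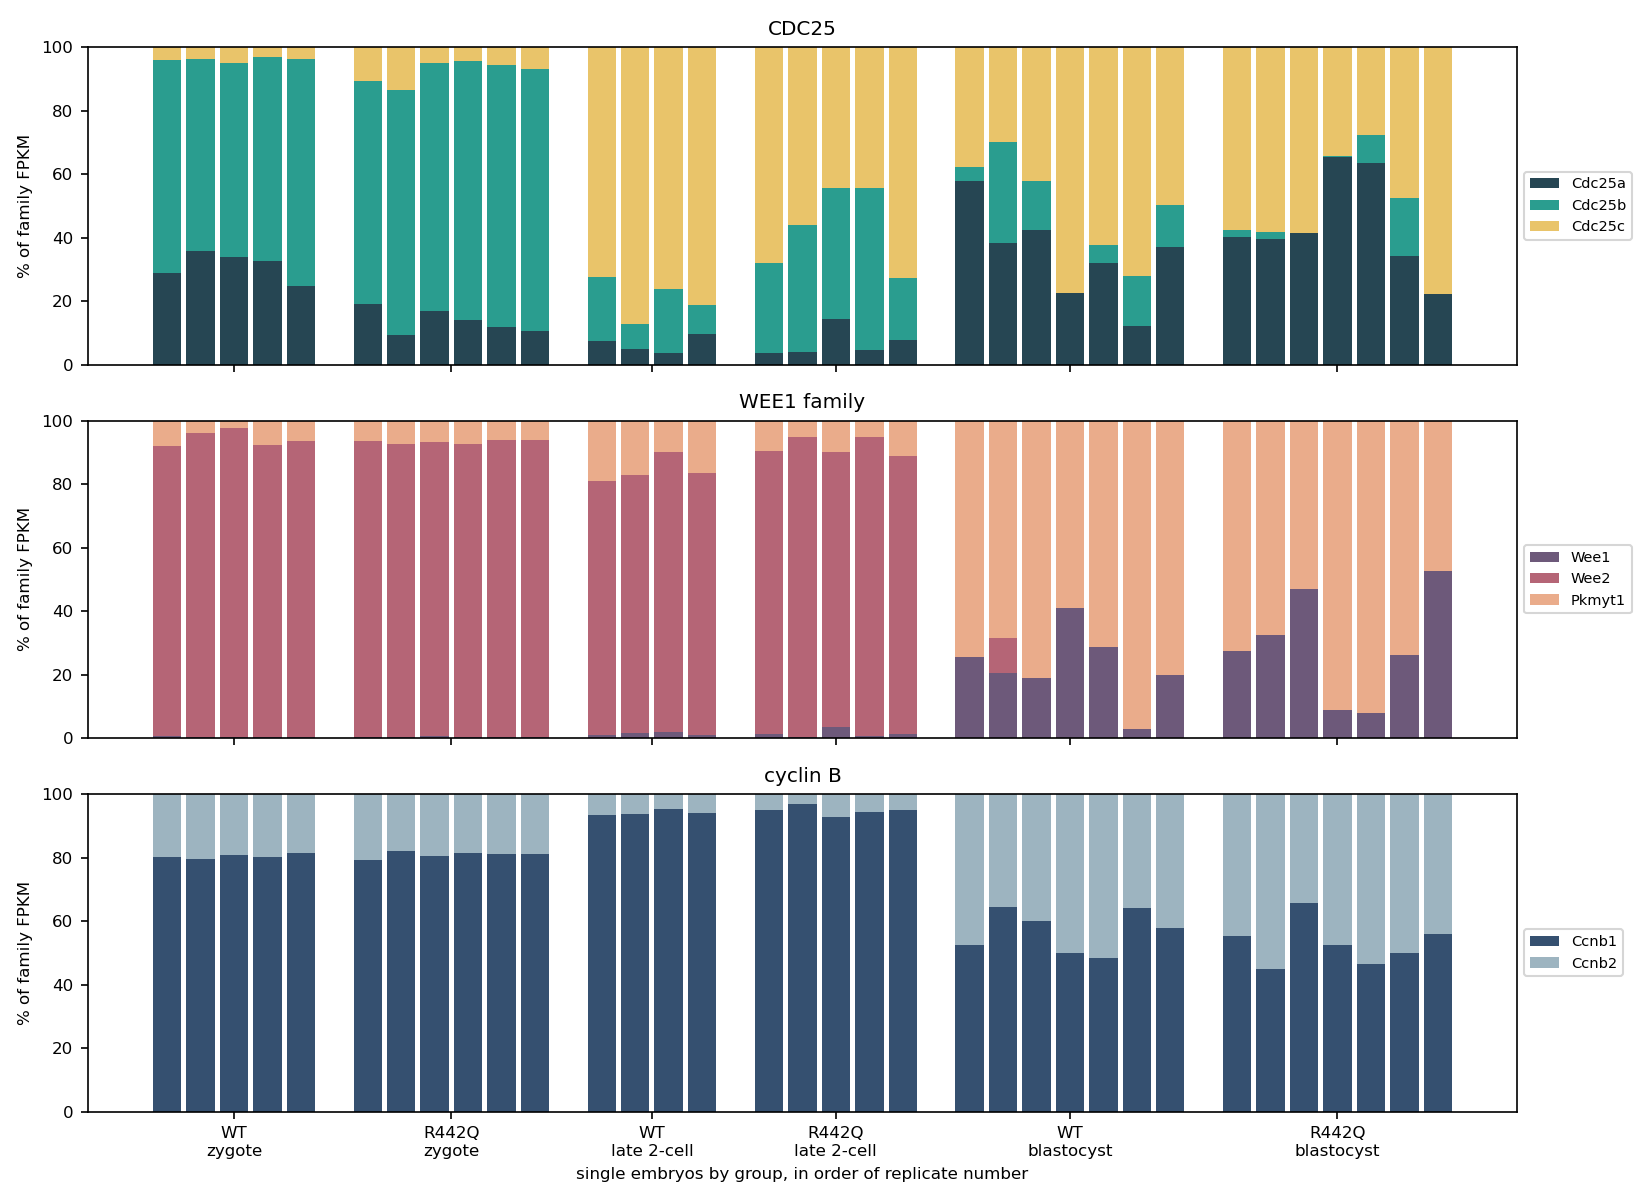
Each bar is 1 embryo and shows how the FPKM of a family divides among its members, in percent, for CDC25, the WEE1 family and cyclin B. The leading CDC25 gene is Cdc25b in all 11 zygotes, while Wee2 leads the WEE1 family in zygotes and late 2-cell embryos and is missing from 13 of 14 blastocysts.

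The inhibitory kinases were led by Wee2 until the late 2-cell stage and on average by Pkmyt1 in blastocysts. Wee2, the oocyte kinase (ENSMUSG00000037159.11, chr6:40439088-40466813, plus strand) had 999.8, 1119, 1436, 1119 and 1162 CPM in WT zygotes and 1213, 1285, 1069, 1262, 1184 and 1293 in R442Q zygotes. It had 467, 308, 919 and 315 CPM in WT late 2-cell embryos and 551, 617, 594, 858 and 292 in R442Q. Late 2-cell embryos were all below the zygotes of their genotype, and Wee2 fell by 1.31 ± 0.29 on the log2 scale in WT and by 1.25 ± 0.26 in R442Q (edgeR, adjusted p of 0.000416 and 0.000181). Without WT late 2-cell replicate 3, the WT fall was by 1.92. It was listed at 0 in 13 of 14 blastocysts and at 2.20 rescaled FPKM in WT blastocyst replicate 2, so it was not tested there. Genotype differences were 0.18 ± 0.10 in zygotes and 0.31 ± 0.38 in late 2-cell embryos, neither of which passed (edgeR, adjusted p of 0.257 and 0.695).

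Wee1, which encodes the WEE1 kinase of somatic cells, stayed low throughout (ENSMUSG00000031016.9, chr7:110122046-110143286, plus strand). It ranged from 1.71 to 5.41 rescaled FPKM in zygotes, from 1.46 to 12.8 in late 2-cell embryos and from 0.520 to 11.1 in blastocysts. The high late 2-cell values came from WT replicate 3 (10.7) and R442Q replicate 3 (12.8), while the other 7 were between 1.46 and 3.50. Its stage change was 0.89 ± 0.56 in WT and 0.39 ± 0.50 in R442Q and did not pass (edgeR, adjusted p of 0.171 and 0.506). The WT value was 0.010 without WT late 2-cell replicate 3 and the R442Q value -0.27 without R442Q late 2-cell replicate 3. No genotype difference passed at any stage, with log2 values of 0.50 ± 0.28, 0.08 ± 0.71 and 0.00 ± 0.44 and adjusted p of 0.270 and 0.966 in edgeR and 0.9995 in limma. The late 2-cell value was 0.80 without WT replicate 3 and -0.64 without R442Q replicate 3.

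Pkmyt1, which encodes the membrane-bound kinase of the family, was the other member whose genotype effect differed between the early stages (ENSMUSG00000023908.8, chr17:23726336-23736735, plus strand). Its CPM were 62.96, 33.6, 26.4, 66.8 and 62.4 in WT zygotes and 63.5, 73.7, 59.9, 74.9, 57.7 and 61.3 in R442Q zygotes. Late 2-cell CPM were 79.99, 51.5, 73.3 and 45.3 in WT and 44.96, 25.8, 47.99, 35.9 and 27.96 in R442Q. WT zygote replicates 2 and 3 were the low zygotes, and 4 of 5 R442Q late 2-cell embryos were below all WT. The genotype difference was 0.48 ± 0.22 in zygotes and -0.67 ± 0.33 in late 2-cell embryos, and neither passed (edgeR, adjusted p of 0.162 and 0.260).

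Pkmyt1 fell by 1.03 ± 0.26 on the log2 scale from R442Q zygote to late 2-cell (edgeR, adjusted p = 0.00127), while its WT change of 0.22 ± 0.28 did not pass (adjusted p = 0.505). The interaction was -1.25 ± 0.38 (edgeR, adjusted p = 0.0356). That call was lost in edgeR with RLE size factors (adjusted p = 0.0720) and with no filter on low counts (0.0866). It was lost too with library totals over all genes (0.0746) and with the replicate number as a block (0.121). The same held in 15 of 20 fits leaving out an embryo, the largest adjusted p being 0.128 without WT zygote replicate 2. The 5 fits that kept the call left out WT zygote replicate 1, 4 or 5, WT late 2-cell replicate 4 or R442Q late 2-cell replicate 1. In blastocysts Pkmyt1 made up 75.9% ± 11.97 of WEE1-family FPKM in WT and 71.0% ± 17.1 in R442Q, and its genotype difference did not pass in limma (log2 -0.35 ± 0.38, adjusted p = 0.890).

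Cdk1, which encodes the kinase that drives mitosis, rose after the zygote (ENSMUSG00000019942.13, chr10:69335146-69352938, minus strand). Zygotes had 104, 147, 107, 111 and 138 CPM in WT and 89.6, 111, 106, 65.97, 106 and 119.5 in R442Q. Late 2-cell embryos had 446, 573, 484 and 760.3 CPM in WT and 1429, 954, 474, 1298 and 686 in R442Q. Every late 2-cell embryo was above every zygote, and Cdk1 rose by 2.15 ± 0.29 on the log2 scale in WT and by 3.12 ± 0.27 in R442Q (edgeR, adjusted p of 8.73e-07 and 6.74e-10). Within late 2-cell embryos, 3 of 5 R442Q values were above all WT, a log2 difference of 0.89 ± 0.38 that did not pass (edgeR, adjusted p = 0.192). The interaction of 0.97 ± 0.38 did not pass in edgeR either (adjusted p = 0.109), while DESeq2 called it (adjusted p = 0.0456), as did edgeR without R442Q late 2-cell replicate 3 (adjusted p = 0.00892) or 5 (0.0441). In blastocysts Cdk1 ranged from 239 to 388 rescaled FPKM in WT and from 78.2 to 540.4 in R442Q, with 4 of 7 R442Q below all WT and a limma log2 difference of -0.56 ± 0.32 (adjusted p = 0.768).

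Ccnb1 and Ccnb2 encode the B-type cyclins that activate CDK1, and both fell after the zygote. Ccnb1 (ENSMUSG00000041431.16, chr13:100778650-100786570, minus strand) had 1723, 2161, 2019, 1986 and 2179 CPM in WT zygotes and 1924, 1909, 1822, 1896, 1978 and 2159.8 in R442Q zygotes. Its late 2-cell CPM were 736, 1031, 832 and 876 in WT and 1935, 1281, 793, 1553 and 1259 in R442Q. The WT stages did not overlap, R442Q late 2-cell replicate 1 reached zygote values, and 4 of 5 R442Q late 2-cell embryos were above all WT. Ccnb1 fell by 1.28 ± 0.22 on the log2 scale in WT (edgeR, adjusted p = 2.97e-05) and by 0.68 ± 0.20 in R442Q (adjusted p = 0.00402). The late 2-cell genotype difference of 0.76 ± 0.32 did not pass (edgeR, adjusted p = 0.191), but passed in the model joined with zygotes (log2 0.70, adjusted p = 0.0302) and without R442Q replicate 3 (0.94, adjusted p = 0.0452). In annotated transcripts of Ccnb1, 23.4% of 50-base stretches also occur in another gene, mostly the pseudogene Ccnb1-ps, so its counts could be split between them.

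Ccnb2 (ENSMUSG00000032218.7, chr9:70407692-70421547, minus strand) had 268, 345, 303, 319.6 and 329 CPM in WT zygotes and 352, 282, 301, 298, 316 and 353 in R442Q zygotes. Late 2-cell CPM were 47.7, 60.2, 39.05 and 50.01 in WT and 81.4, 38.4, 63.5, 79.05 and 63.5 in R442Q. All late 2-cell embryos were below all zygotes, and Ccnb2 fell by 2.74 ± 0.23 on the log2 scale in WT and by 2.47 ± 0.20 in R442Q (edgeR, adjusted p of 8.21e-10 and 4.07e-10). No genotype difference in Ccnb2 passed, with log2 values of 0.14 ± 0.10 in zygotes and 0.50 ± 0.33 in late 2-cell embryos (edgeR, adjusted p of 0.414 and 0.411) and 0.05 ± 0.22 in blastocysts (limma, 0.980). Ccnb1 made up 80.5% ± 0.661 of cyclin B FPKM in WT zygotes, 94.1% ± 0.775 in WT late 2-cell embryos and 56.8% ± 6.60 in WT blastocysts, and 80.9% ± 1.001, 94.9% ± 1.49 and 53.0% ± 7.04 in R442Q. Ccnb2 levels in blastocysts, 262 ± 68.3 rescaled FPKM in WT and 259 ± 61.5 in R442Q, were thus well above the late 2-cell levels of 49.7 ± 8.36 and 55.1 ± 12.7, a difference across tables that was not tested.

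Per length, Ccnb1 exceeded Cdk1 6.64 ± 0.870 times in WT zygotes (SD, n = 5) and 9.21 ± 1.44 times in R442Q zygotes (n = 6). The groups overlapped when the ratio was taken from CPM, which do not divide by length, and neither ratio was tested. In late 2-cell embryos it was 0.983 ± 0.193 in WT and 0.965 ± 0.251 in R442Q, and in blastocysts 1.21 ± 0.672 and 1.63 ± 0.862. Implied lengths enter this ratio: for Ccnb1 they were 2079 to 2167 bases in WT and 1968 to 2029 bases in R442Q zygotes, and 1283 to 1672 bases in late 2-cell embryos. For Cdk1 they were 734 to 925 bases in WT and 815 to 982 bases in R442Q zygotes.

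Plk1 encodes the kinase that promotes mitotic entry upstream of CDC25 and WEE1 (ENSMUSG00000030867.7, chr7:122159439-122169873, plus strand). It was even among WT zygotes, at 404, 398, 421, 436 and 420.3 CPM, and scattered among R442Q zygotes, at 228, 208, 355, 244, 312 and 404. In R442Q zygotes 5 of 6 lay below all WT and replicate 6 lay within them, a log2 difference of -0.40 ± 0.14 that did not pass (edgeR, adjusted p = 0.0733). It passed with no filter on low counts (-0.42, adjusted p = 0.0327), in limma on the deposited FPKM (-0.56, adjusted p = 0.0263) and in edgeR without R442Q replicate 6 (-0.50, adjusted p = 0.0224). Late 2-cell CPM were 48.8, 305, 209 and 192 in WT and 198, 88.2, 16.2, 102 and 116 in R442Q, with the lowest values in WT replicate 1 and R442Q replicate 3, and the groups overlapped (log2 -0.74 ± 0.60, edgeR adjusted p = 0.525). Plk1 fell by 1.19 ± 0.47 from zygote to late 2-cell in WT (edgeR, adjusted p = 0.0327) and by 1.63 ± 0.43 in R442Q (adjusted p = 0.00210). The WT call was lost without WT late 2-cell replicate 1 (adjusted p = 0.0675), WT late 2-cell replicate 4 (0.0583) or WT zygote replicate 4 (0.0501). Blastocysts ranged from 30.4 to 106 rescaled FPKM in WT and from 12.1 to 86.9 in R442Q (limma log2 -0.58 ± 0.38, adjusted p = 0.803).

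Counted over the set, 8 of 10 members changed from zygote to late 2-cell in WT, 2 higher and 6 lower, where 61.2% of 16199 genes did, 36.2% higher and 25.0% lower. The stages did not overlap for 8 members, against 56.7% of genes. In R442Q it was 9 of 10, 2 higher and 7 lower, against 65.1% of genes, 35.3% higher and 29.8% lower. There the stages did not overlap for 7 members, against 44.9% of genes. The members' median change was -1.24 in WT and -0.94 in R442Q. Between genotypes 0 of 10 members passed in late 2-cell embryos by edgeR, against 4.18% of 13883 genes, with 2 at an unadjusted p under 0.05 (Cdk1 and Ccnb1, against 21.0% of genes), 0 in DESeq2 and 1 in the joined model. In blastocysts 0 of 9 members tested passed by limma, against 0.00885% of 11297 genes, and 0 had an unadjusted p under 0.05, against 7.40% of genes. The 5 comparisons of zygotes and late 2-cell embryos share embryos, so their values for a gene are not independent.

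**Figure D3:**
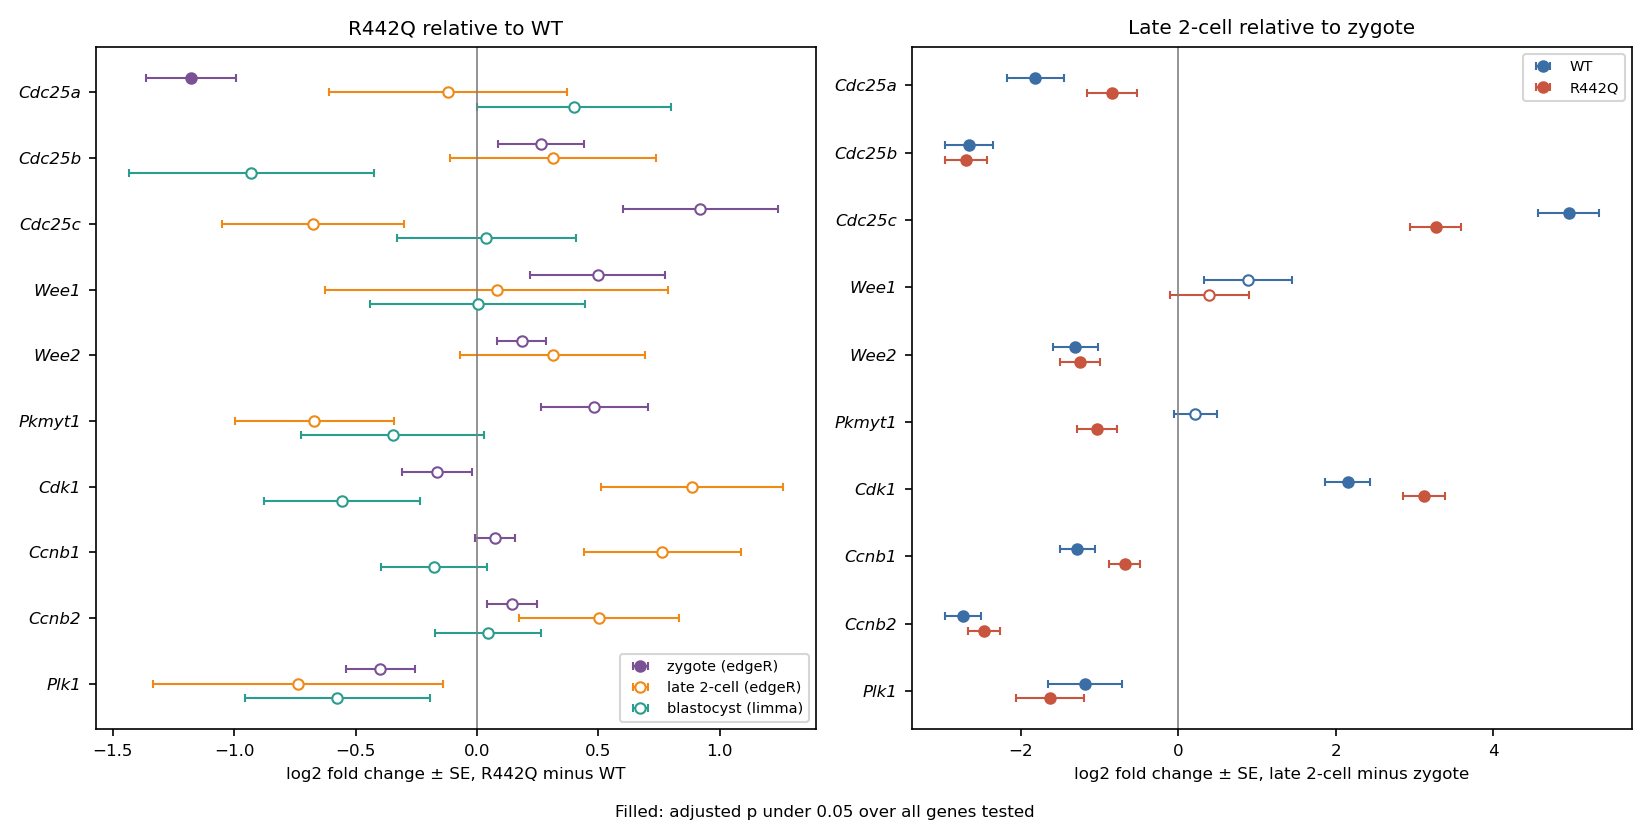
Log2 fold changes of the members with their SE, R442Q against WT at each stage on the left and late 2-cell against zygote in each genotype on the right. Filled points passed an adjusted p of 0.05 over all genes tested: Cdc25a in zygotes on the left, and 8 members in WT and 9 in R442Q on the right.

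Members were also compared with each other across the embryos of a stage, after removing genotype means and permuting embryos within genotypes. Of 126 pairs and stages, 0 passed an adjusted p of 0.05. The smallest p belonged to Ccnb1 and Plk1, a pair chosen for display after its values were seen. Their Pearson r in the 14 blastocysts was 0.80 (permutation p = 0.00132, adjusted p = 0.166), Spearman's rho was 0.85 (permutation p = 0.00097, adjusted p = 0.122), and r was 0.72 without the 2 embryos farthest from the median of Ccnb1. In the 9 late 2-cell embryos r was 0.93 (exact permutation p = 0.00347, adjusted p = 0.219), rho was 0.72 (exact permutation p = 0.0653, adjusted p = 0.757), and r was 0.83 without the 2 farthest. In the 11 zygotes r was 0.30 (permutation p = 0.355, adjusted p = 0.747), rho was 0.35 (permutation p = 0.328, adjusted p = 0.826), and r was -0.063 without the 2 farthest.

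**Figure D4:**
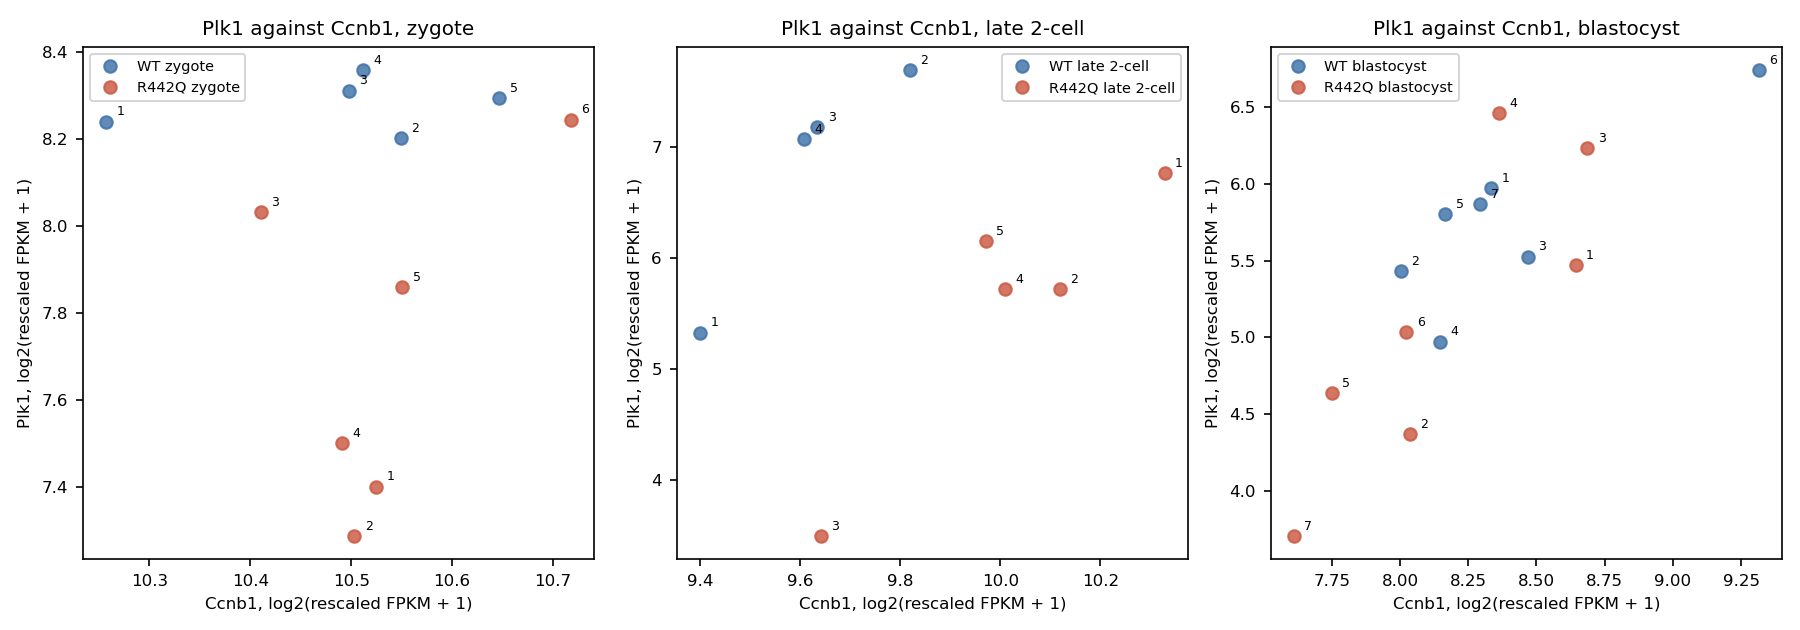
Plk1 against Ccnb1 in single embryos of each stage, both as log2(rescaled FPKM + 1), with replicate numbers beside the points. WT blastocyst replicate 6 has the highest value of both genes among blastocysts, and late 2-cell R442Q replicate 3 has the lowest Plk1 of its stage.

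Among genes with a mean of at least 5 rescaled FPKM, those whose levels followed each member most closely over the 34 embryos were found by Pearson r of log2 values, a description that mixes stage and table. For Wee2 they were D6Ertd474e and Nlrp9c (r of 0.996 for both), for Ccnb1 C87436 and Rmi1 (0.970 and 0.966), and for Cdc25b Ssbp2 and Smagp (0.962 and 0.957). For Ccnb2 they were Sec13 and Spag7 (0.947 and 0.943), for Cdc25c Slc34a2 and Trim43b (0.943 and 0.924) and for Cdk1 Snapc3 and Serp1 (0.9157 and 0.9156). Plk1 was followed by Cenpf and Med23 (0.893 and 0.888), Pkmyt1 by Nbr1 and Pdk1 (0.871 and 0.870), and Cdc25a by Dtnb and Tm7sf3 (0.795 and 0.759). Wee1 lay below the minimum mean.

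Other parts of the pathway were read from a list of 51 regulators of the switch. In zygotes 47 were tested and 8 passed in edgeR, 5 higher and 3 lower in R442Q, where 13.2% of all genes tested passed. The count was 5 with no filter on low counts and without WT replicate 1, WT replicate 2 or R442Q replicate 5, and 0 in the model joined with late 2-cell embryos. The CDK1 partners Cks1b (log2 0.46 ± 0.09, adjusted p = 0.00266), Ccna2, which encodes cyclin A2 (0.42 ± 0.11, adjusted p = 0.0159) and Cks2 (0.34 ± 0.09, adjusted p = 0.0256) were higher. Cdk7, a kinase that activates CDK1, was lower (-0.73 ± 0.16, adjusted p = 0.00578), as were Btrc, which encodes a ubiquitin ligase subunit that targets CDC25A and WEE1 (-0.51 ± 0.11, adjusted p = 0.00670) and Fbxo5, an inhibitor of the anaphase-promoting complex (-0.52 ± 0.14, adjusted p = 0.0239). The genotypes did not overlap for 7 of the 47, against 9.39% of all genes tested: Cks1b, Cdk7 and Btrc, and, without passing the test, Ccnb3, Mnat1, Aurka and Ywhab, all 4 with every R442Q zygote below all WT. All 6 calls were lost in the model joined with late 2-cell embryos, with adjusted p from 0.147 to 0.617, and the cause was not tested. The call of Fbxo5 was also lost without WT replicate 1 or 2 or R442Q replicate 5 (largest adjusted p = 0.0555). That of Cks2 was lost without WT replicate 1, 3 or 4, with no filter on low counts and in limma on FPKM (largest adjusted p = 0.211). The median over the list was -0.03, against 0.01 over all genes tested.

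By role, the zygote calls were 4 of 7 CDK1 partners and activating kinase subunits, 3 of 8 genes of ubiquitin ligases and their inhibitors, and 1 of 9 G2/M transcription factors. They were 0 of the 9 Greatwall and PP2A-B55 genes, the 7 14-3-3 genes, the 2 genes of PLK1 activation, the 2 other CDC25 kinases and the 3 CDK1 inhibitors tested. Of all genes tested, 13.2% passed. In late 2-cell embryos 0 of 50 regulators passed in edgeR, against 4.18% of all genes tested, and 16 had an unadjusted p under 0.05, against 21.0% of all genes. DESeq2 called 8 of them and 1846 of all genes, and the joined model 13 and 2507. In edgeR 1 regulator passed with no filter on low counts and 4 without R442Q replicate 3. In blastocysts 0 of 46 passed in limma, against 0.00885% of all genes, with 3 at an unadjusted p under 0.05, against 7.40%.

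From zygote to late 2-cell 35 of 50 regulators changed in WT, 14 higher and 21 lower, and 36 in R442Q, 16 higher and 20 lower, where 61.2% and 65.1% of all genes did. Cdkn1a, a CDK inhibitor, rose by 5.10 ± 0.53 on the log2 scale in WT (edgeR, adjusted p = 1.79e-08), and Sfn, a 14-3-3 gene, rose by 4.42 ± 0.39 in WT and 4.11 ± 0.35 in R442Q (adjusted p of 1.77e-09 and 6.18e-10). Skp1a, Btrc, Ywhaz and Melk fell in WT, by 2.40 ± 0.22, 2.12 ± 0.28, 2.07 ± 0.20 and 2.01 ± 0.24 (edgeR, largest adjusted p = 7.61e-07). Without WT late 2-cell replicate 2, Btrc fell by 2.78. In R442Q, Nfyb rose by 3.29 ± 0.32, Cdk7 by 2.19 ± 0.24 and Ywhaq by 1.74 ± 0.17, while Melk fell by 2.15 ± 0.22 and Ywhaz by 1.69 ± 0.18 (edgeR, largest adjusted p = 2.87e-08). The interaction passed for 9 of 50 regulators, against 10.1% of all genes. The count was 5 with no filter on low counts, 15 in DESeq2, 2 with a replicate block, 5 without WT zygote replicate 3 and 18 without R442Q late 2-cell replicate 3. For 5 of the 9 the R442Q effect was higher in late 2-cell embryos than in zygotes, and for 4 it was lower. Genes of ubiquitin ligases and their inhibitors gave 4 of these, CDK1 partners and activating kinase subunits 2, PP2A-B55 genes 2 and G2/M transcription factors 1. Counts of Cks2, Ywhaq, Ywhaz and Sfn are uncertain, because 29.7%, 23.9%, 15.2% and 15% of the 50-base stretches in their annotated transcripts also occur elsewhere in the annotation.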

How the data were processed

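RNA of single mouse embryos was sequenced by SMART-seq2 with Tn5 and Nextera libraries, per the labels' protocols. The deposited tables hold estimated counts per gene symbol for zygotes and late 2-cell embryos, not normalised, with 75.4% and 71.7% of values above 0 written as whole numbers. The authors also deposited FPKM for all 3 stages. RSEM and mm10 are named in the submitters' processing notes, with their use not described. Other steps, and the use of strand, are not given in the sources used here. Without strand, Cdc25b, Cdc25c, Wee1, Pkmyt1 and Plk1 cannot be told apart from genes overlapping them on the other strand. Samples were grouped by title.

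Estimated counts were rounded and tested with edgeR 4.0.16 in R 4.3.3 (filterByExpr with a minimum count of 10, TMM, quasi-likelihood test). Each stage was fitted alone, and both early stages together, as 4 groups, for the stage change and the interaction. For blastocysts, limma 3.58.1 with a mean-variance trend was run on log2(FPKM + 1), keeping genes that reached an FPKM of 1 in 7 or more embryos, and the added 1 understates changes of low genes. P-values were adjusted by Benjamini-Hochberg over all genes tested, with a threshold of 0.05. CPM use plain library totals and fold changes the TMM scaling. Scripts were tested on simulated data. Alternatives were RLE size factors, no filter, DESeq2 1.42.0, limma on FPKM, the joined model, robust dispersion, a replicate block, a pseudocount of 0.1, rescaled FPKM, array weights, leaving out each embryo and, chosen after seeing the data, library totals over all genes.

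The members and gene lists were chosen with earlier results of these data known. All members were named, with up to 6 regulators past the threshold, by p, in each comparison, and the 2 genes of most similar pattern to each member. Gene positions are from GENCODE on GRCm38.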

Additional observations from a re-analysis of the deposited data

Results flagged for a closer look

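Of 59 groups of 4 to 7 embryos examined for the members, 5 held an embryo far from the others by Dixon's test. Chance flags about 1 group in 20. Chek1 is not counted in these groups. It stood at 921 rescaled FPKM in WT late 2-cell replicate 4, where the others ranged from 481 to 525. Cdc25a stood at 24.3 rescaled FPKM in WT blastocyst replicate 1, where the other 6 ranged from 3.25 to 11.5. Wee1 stood at 12.8 in R442Q late 2-cell replicate 3, where the other 4 ranged from 1.46 to 3.31. Wee2 stood at 2.20 in WT blastocyst replicate 2 and was listed at 0 in the other 6. Any single value above 0 would be flagged there, so the chance rate does not apply to that group. WT blastocyst replicate 6 stood apart for both Ccnb1 (636, others 256 to 353) and Plk1 (106, others 30.4 to 61.7).

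The genotype effect differed between zygotes and late 2-cell embryos, by edgeR's interaction test, for 2 members and 6 named regulators. The effect was lower in late 2-cell embryos for Cdc25c (log2 -1.69), Pkmyt1 (-1.25), Fbxw11 (-1.91), Lin54 (-1.34) and Ppp2r1a (-1.16). It was higher there for Ccnb3 (3.53), Cdk7 (1.24) and Skp1a (1.12). The Ppp2r1a call was lost in 14 of 20 fits that left out an embryo (edgeR, largest adjusted p = 0.0910, without WT zygote replicate 2), with RLE size factors (0.0526), with no filter on low counts (0.0649) and with library totals over all genes (0.0511). That of Cdk7 was lost with no filter on low counts (0.0578), and that of Fbxw11 without WT late 2-cell replicate 2 (0.0550). With the replicate number as a block, the calls of Pkmyt1 (0.121), Ppp2r1a (0.161), Lin54 (0.133), Fbxw11 (0.152) and Ccnb3 (0.189) were lost.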

How the results depend on the processing

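In zygotes 2 members passed with no filter on low counts, in DESeq2 and in limma on FPKM, and 0 in the model of both early stages, which called 270 genes. Leaving out an embryo gave 1 to 2 members, with 2 without R442Q replicate 3 or 6. In late 2-cell embryos 889 genes passed with no filter, 1846 in DESeq2 and 2507 in the joined model, which called 1 member. Leaving out an embryo gave 0 to 1 members and 142 genes (without WT replicate 2) to 891 (without R442Q replicate 3). The interaction kept 1 member with RLE size factors, no filter or library totals over all genes, and DESeq2 called 2526 genes. Leaving out an embryo gave 0 members and 1089 genes (without WT zygote replicate 2) to 3 members and 2311 genes (without R442Q late 2-cell replicate 3). In blastocysts 0 genes passed with no filter, 5 with array weights, and 0 to 30 on leaving out an embryo, with 30 without WT replicate 7. The cause of these changes was not tested.

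No value that had passed its test changed sign in the alternatives run; the following, which had not passed, did. The late 2-cell effect on Chek1 became -0.0016 with RLE size factors, -0.059 with no filter, -0.0063 with library totals over all genes, -0.0066 in DESeq2 and -0.043 in the joined model, and ranged from -0.18 to 0.21 on leaving out an embryo. That on Wee1 was -0.027 in limma on FPKM and ranged from -0.64 to 0.80, and that on Cdc25a from -0.38 to 0.080. The stage change of Pkmyt1 in WT ranged from -0.065 to 0.35 and that of Wee1 in R442Q from -0.27 to 0.63. The Cdc25b interaction was 0.12 with RLE size factors, 0.0010 with no filter, 0.11 with library totals over all genes and 0.12 in DESeq2, and ranged from -0.22 to 0.31. Other interactions ranged from -1.06 to 0.33 for Wee1, -0.11 to 0.64 for Wee2 and -0.72 to 0.077 for Plk1. In blastocysts, rescaled FPKM gave -0.027 for Cdc25c, -0.054 for Wee1 and -0.024 for Ccnb2, and array weights gave -0.44 for Wee1. Leaving out an embryo there gave -0.091 to 0.26 for Cdc25c, -0.33 to 0.16 for Wee1, -0.10 to 0.16 for Ccnb2 and -0.25 to 0.13 for Chek1.

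Replicate numbers, taken from the titles, gave no clear sign of pairing. Deviations of same-numbered embryos correlated above 0.1 in 0 of 5 zygote, 1 of 4 late 2-cell and 3 of 7 blastocyst pairs. In these stages 0, 1 and 2 WT embryos correlated best with their own number. The sample descriptions number the WT zygotes and some late 2-cell embryos differently, and pairing by those numbers was not checked. With the number as a replicate block, 2 members passed in zygotes, 1 in the interaction, and 49 genes in late 2-cell embryos, 633 in the interaction and 0 in blastocysts. The block gave -0.029 for Chek1 in late 2-cell embryos and 0.18 for the Cdc25b interaction. With the block, the fall from zygote to late 2-cell did not pass for Plk1 in WT (edgeR, adjusted p = 0.0811) and Ccnb1 in R442Q (0.0818), nor did the Pkmyt1 interaction (0.121), and Plk1 passed in zygotes (0.0255) while Cks2 did not (0.0632). The depth of blastocysts is unknown.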
